A study of Glycine max with 6 samples.

Results

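Cytochrome P450 genes were represented on the soybean cDNA array by 13 clones of 4 genes, among 18361 cDNA clones in all and 1091 clones that carry a single gene symbol. They were chosen by name alone, as every clone whose one gene symbol in the probe-to-gene table begins with CYP and a number. The 4 genes belong to 4 different P450 families: CYP83D1 (1 clone), CYP93E1 (4 clones), CYP97B2 (3 clones) and CYP98A2 (5 clones). Each clone was printed once per slide, and all 4 symbols are present in the RefSeq gene table of assembly Glycine_max_v4.0. Clones are named below by their set and number, and 6 of the 13 come from the root unigene sets Gm-r1021 and Gm-r1083 while 7 come from the set Gm-r1070.

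Root RNA of 2 near-isogenic soybean lines was compared, the Fe-efficient line Clark and the Fe-inefficient line IsoClark, which was bred into the Clark background. Both lines grew in hydroponics with sufficient Fe, so no group here was short of iron, and each RNA sample pooled roots of several plants of 1 hydroponic unit. The 3 biological replicates were each hybridized to a pair of arrays with the Cy3 and Cy5 dyes exchanged, using 90 ug of RNA per labelling. Each of the 6 arrays therefore carries both lines. The arrays are called R1a to R3b, where the number is the replicate, a stands for IsoClark in Cy3 and b for IsoClark in Cy5. Because each tissue sample is a mixture of root cells, fewer cells of a type and less transcript per cell cannot be told apart.

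P450 enzymes are haem-containing monooxygenases that insert an oxygen atom into an organic substrate, and plants use large families of them to build lignin, saponins, isoflavonoids, pigments and hormones. The iron of the haem group is part of the active site. CYP98A enzymes, as characterized in Arabidopsis, hydroxylate the aromatic ring of p-coumaroyl esters on the way to lignin and related phenolics. CYP93E1 is the soybean enzyme that oxidizes the triterpenes β-amyrin and sophoradiol during soyasaponin synthesis. The CYP97 family holds carotenoid ring hydroxylases in Arabidopsis. No role is given here for CYP83D1.

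Most P450 spots gave signal above background in each line. Of 78 P450 spots over the 6 arrays, 25 (32.1%) had been marked as poor by the image program, against 29.3% of all cDNA spots. This left 53 usable P450 spots, of which the image program had called 11 empty. A spot was counted as above background when its mean signal exceeded the background median plus 2 background SD. IsoClark lay above background at 44 of the 53 usable spots and Clark at 44 of 53, or 83.0% in each line. Over all spots, poor ones included, the shares were 88.5% for IsoClark and 85.9% for Clark, beside 86.9% and 87.9% for all cDNA spots and 7.71% and 7.38% for blank or empty spots. No P450 spot was saturated.

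The clones differed in how securely they were seen. CYP83D1 clone Gm-r1021-2518 was usable and above background in both lines on all 6 arrays, with a signal of 6.38 to 43.8 times the local background in IsoClark and 4.31 to 20.1 times in Clark. CYP93E1 clone Gm-r1021-1888 was above background on its 5 usable arrays, at 16.8 to 50.5 times background in IsoClark and 13.8 to 62.1 times in Clark. At the other end, CYP93E1 clone Gm-r1070-8806 had 4 usable spots, all called empty by the image program, and IsoClark was above background at 0 of them and Clark at 2. CYP98A2 clone Gm-r1070-4564 was above background at 2 of 4 usable spots in each line. Signals of different clones are not set against each other here, because the brightness of a spotted cDNA depends on its own probe as well as on the transcript.

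The spot level, the mean log2 intensity of both channels relative to the median clone of the same array, also varied within clones. Its SD over usable arrays ran from 0.26 for CYP98A2 clone Gm-r1070-6492 (3 arrays) to 1.47 for CYP98A2 clone Gm-r1070-2864 (6 arrays). On the latter clone the level was 1.39 on array R2b and between -2.92 and -1.14 on the other arrays. That array stood apart over all clones, since its intensities correlated with those of the other arrays at a mean r of 0.288, against 0.581 to 0.691 for the rest. It was also the array with the most poor P450 spots, 6 of 13. Without R2b the line ratio described below was 0.26 for CYP98A2 clones Gm-r1070-2864 and Gm-r1083-3838 and -0.32 for CYP93E1 clone Gm-r1021-1888. It was 0.018 for CYP83D1 clone Gm-r1021-2518 (0.09 with all arrays), 0.19 for CYP97B2 clone Gm-r1083-2708 (0.06 with all arrays) and -0.17 for CYP98A2 clone Gm-r1070-5750 (-0.11 with all arrays), and CYP97B2 clone Gm-r1070-3792 lost its only replicate 2 value.

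**Figure D1:**
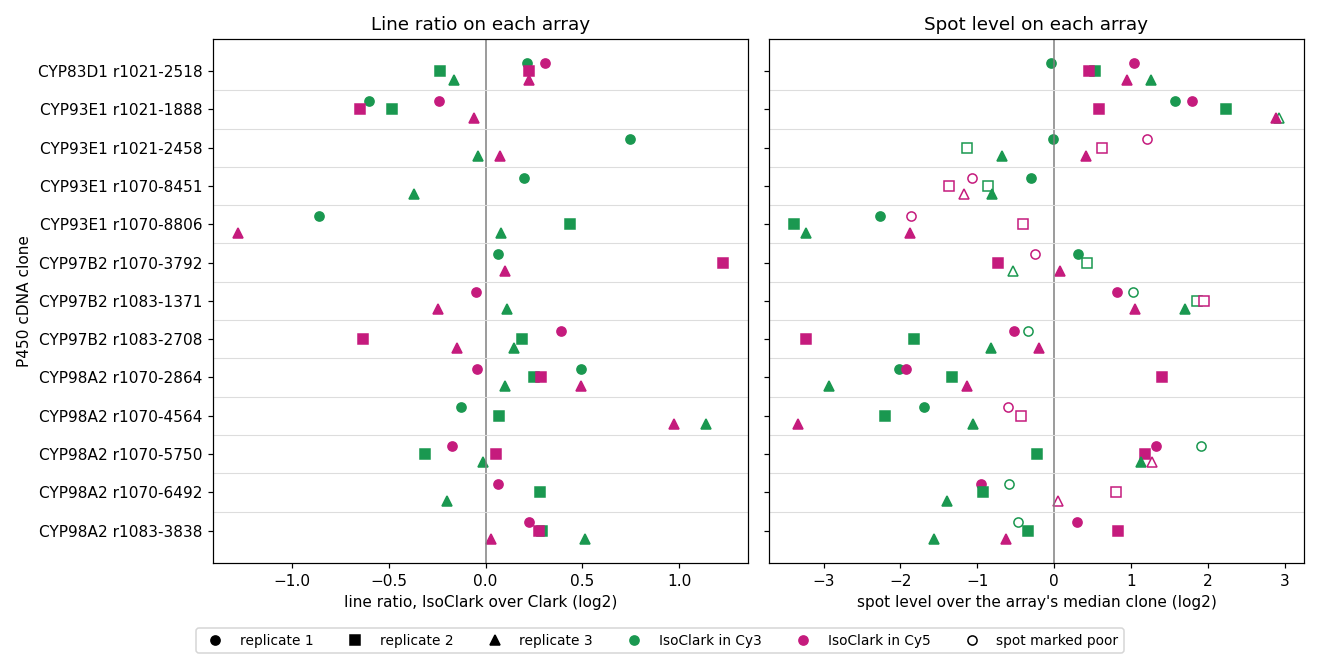
Line ratio (left, IsoClark over Clark, log2) and spot level (right, log2 over the median clone of the array) of the 13 P450 clones on each of the 6 arrays. Symbols give the replicate, colours the dye that carried IsoClark, and open symbols are spots marked as poor, which have no line ratio; levels may be read along a row only, and the level of CYP98A2 clone Gm-r1070-2864 reaches 1.39 on 1 array.

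Whether the lines differ in P450 transcript was asked with the line ratio, IsoClark over Clark on the log2 scale, averaged over each dye-swap pair and tested over the 3 replicates in limma. None of the P450 clones passed an adjusted p of 0.05. Of 13430 clones tested on the array, 0 (0%) passed, and of the 10 P450 clones tested, 0 passed, with adjusted p between 0.796 and 0.957. An unadjusted p under 0.05 in limma was reached by 1 of the 10 P450 clones, against 5.53% (743) of all clones. No P450 clone was 2-fold apart in the mean, as 4 clones (0.0298%) were on the whole array.

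The 95% limma interval lay inside a 2-fold difference in either direction for 9 of the 10 P450 clones, against 97.9% of all clones. The exception was CYP97B2 clone Gm-r1070-3792, whose interval ran from -0.09 to 1.02. The 9 include CYP93E1 clone Gm-r1070-8806, where IsoClark was above background at 0 of 4 usable spots. They also include CYP98A2 clone Gm-r1070-4564, above background at 2 of 4 usable spots in each line. The intervals of these dim clones set no bound on a fold difference. The median absolute ratio was 0.26 over the 10 P450 clones and 0.12 over all clones, and the median SD between replicates was 0.25 and 0.22. The replicate SD exceeded 0.5 in 3 of the 10, against 9.38% of all clones. Those 3 clones were CYP93E1 Gm-r1070-8806, CYP97B2 Gm-r1070-3792 and CYP98A2 Gm-r1070-4564, and the first and the third were also the 2 dim clones described above.

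**Figure D2:**
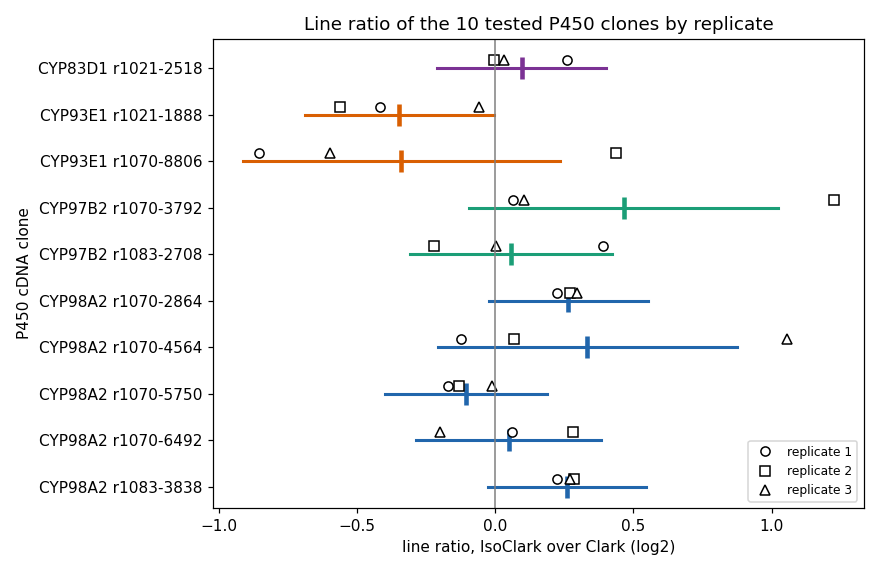
Line ratio (IsoClark over Clark, log2) of the 10 tested P450 clones, coloured by gene. Open symbols are the 3 replicates, the upright tick is their mean and the bar is the 95% limma interval; the bar crosses 0 for 9 clones, and for CYP93E1 clone Gm-r1021-1888 it ends just below 0.

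CYP98A2, the aromatic ring hydroxylase of the phenylpropanoid pathway, had the most clones, and all 5 were tested. Clone Gm-r1070-2864 was the only one of them usable on all 6 arrays. Its line ratios were 0.49 on R1a and -0.04 on R1b, 0.25 on R2a and 0.29 on R2b, and 0.10 on R3a and 0.49 on R3b. The normalized ratio was thus above 0 on 5 of 6 arrays. The pair means of 0.22, 0.27 and 0.30 lay close together, while R1a and R1b, and R3a and R3b, were farther apart than those means. The R3a spot was called empty and lay above background in neither line. The mean was 0.26 ± 0.04 (SD, n = 3), with a 95% interval of -0.02 to 0.55 and an adjusted p of 0.796 in limma.

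CYP98A2 clone Gm-r1083-3838, from a root set, gave almost the same value. It was usable on 5 arrays, and the normalized ratio was above 0 on all 5. The ratios were 0.22 in replicate 1, 0.29 and 0.28 in replicate 2, and 0.52 and 0.028 in replicate 3. The 0.52 came from a spot on R3a that was called empty and where Clark was not above background. The replicate values were 0.22, 0.28 and 0.27 and their mean was 0.26 ± 0.03 (SD, n = 3; interval -0.03 to 0.55; adjusted p = 0.796 in limma). The SDs of these clones were low for the array, since 1.74% of all tested clones had a lower SD than Gm-r1083-3838 and 2.08% a lower SD than Gm-r1070-2864. A mean ratio farther from 0 was found for 16.3% and 15.8% of all clones, so neither ratio was unusual in size. Normalization by print-tip group moved them to 0.17 for Gm-r1070-2864 and 0.10 for Gm-r1083-3838. Leaving out spots called empty gave 0.14 for Gm-r1083-3838, and turning the direction of R3a gave 0.09, so the closeness of its replicate values rests on that spot. For Gm-r1070-2864 leaving out such spots gave 0.25, with replicate 3 resting on R3b, which was 0.49 as reported. The closeness of the replicate values of Gm-r1070-2864 thus also rests on an empty R3a spot.

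The other CYP98A2 clones did not repeat that value. Clone Gm-r1070-5750, at 4 usable arrays, lay below 0 in all 3 replicates at -0.17, -0.13 and -0.01, with a mean of -0.11 ± 0.08 (SD, n = 3). Clone Gm-r1070-6492 had 1 usable array per replicate, with ratios of 0.06, 0.28 and -0.20 and a mean of 0.05 ± 0.24 (SD, n = 3). Clone Gm-r1070-4564 stood at -0.12 in replicate 1 and 0.07 in replicate 2, each on 1 array, and at 1.14 on R3a and 0.97 on R3b. Its mean of 0.33 ± 0.63 (SD, n = 3) therefore rested on replicate 3, where the R3b spot was called empty and lay above background in neither line. The R2a spot behind the 0.07 was of the same kind. Without replicate 3 the mean was -0.03.

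Over the 5 CYP98A2 clones, 4 means lay above 0 and 1 below, from -0.11 to 0.33. Averaging the clones within each replicate gave 0.04, 0.15 and 0.28, or 0.16 ± 0.12 (SD, n = 3) for the gene. The 0.28 of replicate 3 includes clone Gm-r1070-4564 at 1.06, with its R3b spot above background in neither line. This gene mean is a description only, since its clones lie on both sides of 0. The clones carry the same gene symbol but share the replicates' RNA, so they are not independent measurements, and a spotted cDNA may also bind transcripts of related family members.

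Among the genes with CYP symbols, CYP93E1, the soyasaponin pathway enzyme, was the only one whose tested clones both had means below 0. Both tested clones of the isoflavone synthase IFS1, described below, also had means below 0. Clone Gm-r1021-1888 had line ratios of -0.60 and -0.24 in replicate 1, -0.48 and -0.64 in replicate 2, and -0.06 on the 1 usable array of replicate 3. The normalized ratio was below 0 on all 5 usable arrays. The mean was -0.35 ± 0.26 (SD, n = 3), with an interval of -0.69 to -0.0047. This was the 1 clone with a CYP symbol that had an unadjusted p under 0.05, at 0.0477 in limma, and its adjusted p was 0.796. Under normalization by print-tip group the ratio was -0.07.

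The other CYP93E1 clones gave no steady value. Clone Gm-r1070-8806 was at -0.86 in replicate 1, 0.44 in replicate 2, and 0.08 on R3a and -1.28 on R3b, for a mean of -0.34 ± 0.68 (SD, n = 3). Since IsoClark was not above background at any usable spot of that clone, its ratio sets no fold difference. The remaining clones had no usable spot in replicate 2 and were not tested. Clone Gm-r1021-2458 had ratios of 0.75 in replicate 1 and -0.04 and 0.08 in replicate 3, and clone Gm-r1070-8451 had 0.20 in replicate 1 and -0.37 in replicate 3. When poor spots were kept, the first of these had a mean of 0.35 ± 0.30 (SD, n = 3) and the second 0.26 ± 0.21 (SD, n = 3), both above 0, while Gm-r1021-1888 remained below 0 at -0.34. With poor spots kept, CYP93E1 clones therefore stood on both sides of 0, and no mean is given for the gene.

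CYP97B2, of the carotenoid hydroxylase family, had 2 tested clones, both with means above 0. Clone Gm-r1070-3792 had a mean of 0.46 ± 0.66 (SD, n = 3). Each replicate rested on 1 array, with ratios of 0.06, 1.23 and 0.10. The value of 1.23 came from a spot called empty on R2b, the array that stood apart, where Clark was not above background. Without replicate 2 the mean was 0.08. Clone Gm-r1083-2708 had ratios of 0.39 in replicate 1, 0.19 and -0.63 in replicate 2, and 0.15 and -0.15 in replicate 3. Its mean was 0.06 ± 0.31 (SD, n = 3), and its arrays lay on both sides of 0 within replicates 2 and 3.

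The third CYP97B2 clone, Gm-r1083-1371, was not tested because both of its replicate 2 spots were poor. It was above background in both lines on its 3 usable arrays, at 9.81 to 29.7 times background in IsoClark and 6.33 to 20.5 times in Clark. Its ratios were -0.05 in replicate 1 and 0.11 and -0.25 in replicate 3. With poor spots kept, the mean was -0.06 ± 0.02 (SD, n = 3), and at the same setting Gm-r1083-2708 was also below 0, at -0.090.

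CYP83D1 had a single clone, Gm-r1021-2518, and it was the other P450 clone usable on all 6 arrays. Its line ratios were 0.21 and 0.31 in replicate 1, -0.24 and 0.22 in replicate 2, and -0.16 and 0.22 in replicate 3, the a array before the b array. All 3 arrays with Cy5 on IsoClark gave 0.22 to 0.31, whereas those with Cy3 on IsoClark lay on both sides of 0. The pair means were 0.26, -0.01 and 0.03, and the mean was 0.09 ± 0.14 (SD, n = 3; interval -0.21 to 0.40; adjusted p = 0.888 in limma).

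The dye ratio, Cy5 over Cy3 within each swap pair, could be tested only for the 2 clones with both arrays usable in every pair. It was 0.16 ± 0.10 (SD, n = 3) for CYP83D1 clone Gm-r1021-2518 and -0.02 ± 0.23 (SD, n = 3) for CYP98A2 clone Gm-r1070-2864. Neither reached an unadjusted p of 0.05 in limma, which 12.3% of the 2618 clones with complete pairs did. For the tested P450 clones, 15 of 30 replicate values rested on 1 array, where a dye effect cannot cancel, against 44.1% of the replicate values of all tested clones.

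The sign of the ratio was the same in all 3 replicates for 5 of the 10 tested P450 clones, against 29.1% of all clones. Above 0 throughout were 3 (CYP97B2 Gm-r1070-3792, CYP98A2 Gm-r1070-2864 and CYP98A2 Gm-r1083-3838), against 15.8% of all clones. Below 0 throughout were 2 (CYP93E1 Gm-r1021-1888 and CYP98A2 Gm-r1070-5750), against 13.3%. With 10 clones of 4 genes these counts are a description. CYP98A2 is in both groups.

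**Figure D3:**
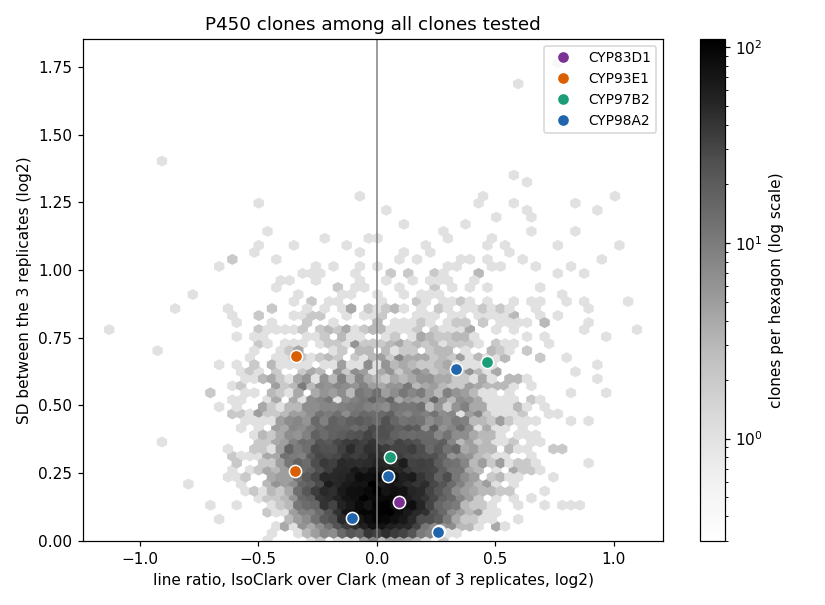
Mean line ratio (IsoClark over Clark, log2) against the SD between the 3 replicates for all 13430 tested clones, as grey hexagons shaded by clone count on a log scale, with the 10 tested P450 clones as coloured points. All 10 points lie inside the cloud of other clones, 3 of them above an SD of 0.5, and the overlapping CYP98A2 points at 0.26 (Gm-r1070-2864 and Gm-r1083-3838) lie near its lower edge.

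Other P450 genes are listed under names that do not begin with CYP. None of these passed the adjusted test, as 0 of all 13430 tested clones did. The isoflavone synthases IFS1 and IFS2, which make the isoflavone skeleton, and the allene oxide synthase AOS2, an enzyme of jasmonate synthesis, had 6 clones, of which 4 were tested. IFS1 clone Gm-r1021-1181 was at -0.50, -0.44 and -0.06 in the 3 replicates, with a mean of -0.33 ± 0.24 (SD, n = 3). IFS2 clone Gm-r1083-316 was at -0.33, -0.47 and -0.11 (mean -0.30 ± 0.18, SD, n = 3), and AOS2 clone Gm-r1083-304 was at -0.40, -0.24 and -0.14 (mean -0.26 ± 0.13, SD, n = 3). The second tested IFS1 clone, Gm-r1021-2091, was at 0.26, -0.07 and -0.20, with a mean of -0.0022 ± 0.24 (SD, n = 3). All 4 means were below 0, as were 6621 of the 13430 means of all clones. IFS1 Gm-r1021-1181, 1 of the 4, had an unadjusted p under 0.05 in limma, at 0.0499, against 5.53% of all clones. The median of the 4 was -0.28, against 0.08 for the 10 CYP clones and 0.0031 for all clones tested. Under print-tip normalization the means were -0.12 for IFS1 Gm-r1021-1181, -0.045 for IFS2 Gm-r1083-316 and -0.050 for AOS2, and IFS1 Gm-r1021-2091 lay above 0 under several alternatives.

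No tested clone of the haem synthesis or phenylpropanoid lists passed the adjusted test, as 0 of all 13430 tested clones did. The haem synthesis list held only 3 clones of 2 genes. Of the haem synthesis genes, GSA1, which makes the tetrapyrrole precursor aminolevulinate, had 1 tested clone at -0.21 ± 0.23 (SD, n = 3), and HEMB, the next enzyme, had 2 at 0.05 ± 0.16 and -0.04 ± 0.20 (SD, n = 3). Of 38 phenylpropanoid and isoflavonoid clones, 29 were tested, 14 with means above 0 and 15 below. The median was -0.03 and the range -0.42 to 0.65. None passed the adjusted test in limma. An unadjusted p under 0.05 in limma was reached by 3 of the 29, against 5.53% of all clones. All 3 means were above 0, namely the isoflavone glucosyltransferase IF7GT (0.65 ± 0.32, SD, n = 3), the isoflavone reductase IFR1 (0.42 ± 0.33, SD, n = 3) and the flavanone hydroxylase F3H (0.38 ± 0.33, SD, n = 3). Among all clones under that p, 431 means were above 0 and 312 below. F3H was at 0.050 under print-tip normalization, IFR1 at 0.031 in the authors' table turned to the labels, and IF7GT at 0.27 with R3a turned. With spots called empty left out, IF7GT and IFR1 could not be tested, and F3H was at 0.27. IF7GT and IFR1 also failed the filter of signal above background in both channels on at least 5 arrays, which F3H met.

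The tissue label could be checked only in part, because of the root markers looked for by symbol (PRP1, PRP2, RSP, NRT2 and EXP1) a clone was found only for EXP1, an expansin. None was found for the nodule markers looked for, which were leghaemoglobins and ENOD2. EXP1 was above background in Clark on all 6 arrays and in IsoClark on 66.7% of them, with a line ratio of -0.28 ± 0.23 (SD, n = 3). Markers of green tissue were above background at 98.5% of their spots in both lines, and seed storage markers at 78.5% in IsoClark and 79.2% in Clark, poor spots included. Most cDNA spots passed this threshold (86.9% in IsoClark and 87.9% in Clark), so these shares are no check of the tissue label. The 9 green tissue clones tested had ratios of -0.20 to 0.23. Their part in the P450 values was not tested.

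**Figure D4:**
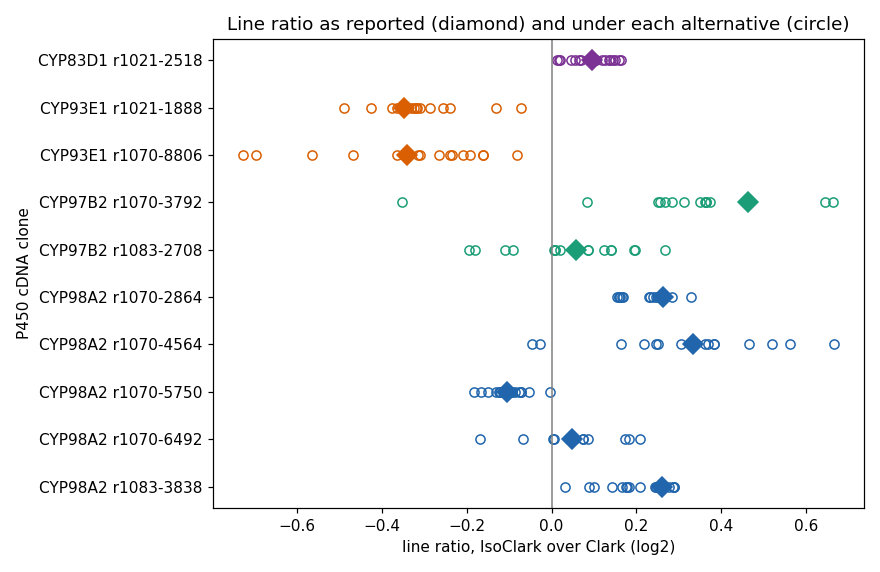
Line ratio (IsoClark over Clark, log2) of the 10 tested P450 clones as reported (diamonds) and under each alternative processing (circles). All values lie on 1 side of 0 for 6 clones, and circles cross 0 for both CYP97B2 clones and for CYP98A2 clones Gm-r1070-4564 and Gm-r1070-6492.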

How the data were processed

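Slides were quantified by the authors in ImaGene (version 6.1.0 in the headers). What they deposited from it is, per dye and spot, the linear, unnormalized signal and background intensity together with a flag, a score by which the authors' image program marked empty and poor spots. A separate deposited table holds log2 ratios, whose background correction and normalization are not given in the sources used here. By correlation with the scanner values, its column for array R3a runs against the dye label. That table was used only as an alternative, and its scale remains unknown. The labelling text of array R2b also names the dyes the other way round from its label field. Directions here follow the label fields.

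Gene names belong to rows of the authors' table and were assigned to clones by number, with 1 fixed shift per clone set that was found from the values. Of 19200 rows, 1158 have 1 gene symbol and 13 have several, which were not used.

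Intensities were background-corrected with normexp (offset 50) and each array was loess-normalized (limma 3.58.1 under R 4.3.3), with weight 0 for blank and poor spots. Ratios were turned to IsoClark over Clark, averaged within a swap pair leaving out poor spots, and lmFit and eBayes tested the mean of the 3 replicate values against 0, adjusted by Benjamini-Hochberg over all clones tested at 0.05. A clone was tested when it lay above background in either channel on at least 3 arrays, poor spots included, and was measured in all 3 replicates. The procedure was also run on simulated arrays with known line differences. Their spread between replicates and arrays was chosen, so that run does not show which differences could be found here. Arrays within a pair correlated at 0.108, -0.0622 and -0.0789 in their line ratios, so p-values measure spread between arrays as well as between plant pools. Arrays of replicate 1 were quantified on a different day from those of replicates 2 and 3. The median spot signal per array was 3.31 to 18.3 times background.

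All P450 clones are named by the rule that every clone with a CYP symbol is described, with clones of the lists on other P450 genes, haem synthesis, and phenylpropanoid and isoflavonoid enzymes given by counts. The other P450 and haem synthesis clones tested are all named, and of the phenylpropanoid and isoflavonoid clones those with an unadjusted p under 0.05, choices made after their values were seen. The members and the lists were chosen with earlier results of these data known. List genes were matched by symbol or synonym only, and a list of P450 electron donors, fixed by description, could not be matched. Alternatives covered the normalization, background, flags, filter, array direction, day, replicate block, the authors' table, and leaving out each replicate.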

Additional observations from a re-analysis of the deposited data

Results flagged for a closer look

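One P450 value stood apart from the others of its clone. The spot level of CYP98A2 clone Gm-r1070-5750, log2 over the median clone of the array, was -0.23 on array R2a and between 1.12 and 1.32 on its 3 other usable arrays, a gap larger than the 95% limit of Dixon's test for 4 values. The line ratio on that array was -0.31, and the other usable arrays gave -0.17 to 0.05. Such a gap was looked for in 8 levels and 8 line ratios with 4 or more usable arrays, and chance alone marks about 1 in 20, so 1 in 16 is near that share.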

How the results depend on the processing

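No P450 clone passed an adjusted p of 0.05 under any alternative. Leaving out single replicates aside, 153 of 159 alternative values for the 10 tested P450 clones kept their sign and 6 did not. Leaving out 1 replicate turned 3 of 30. CYP97B2 Gm-r1070-3792 was -0.35 with array R2b turned. CYP97B2 Gm-r1083-2708 was -0.090 with no spot flags, -0.18 in the authors' table turned to follow the labels, -0.19 in that table as deposited, and -0.11 to 0.20 when 1 replicate was left out. CYP98A2 Gm-r1070-4564 was -0.046 with array R3a turned and -0.028 to 0.56 when 1 replicate was left out. CYP98A2 Gm-r1070-6492 was -0.17 under print-tip loess and -0.069 to 0.17 when 1 replicate was left out. IFS1 Gm-r1021-2091 was 0.013 under median centring, 0.025 under scale normalization, 0.046 in the 6-array fit, 0.063 with day as a term, 0.13 and 0.071 with R3a or R2b turned, 0.049 without array R2b, and -0.13 to 0.10 when 1 replicate was left out. The dye ratio of CYP98A2 Gm-r1070-2864 was 0.033 under print-tip loess, 0.0066 with no background subtraction, and -0.12 to 0.11 when 1 replicate was left out.

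The count of all clones passing the adjusted p was 0, except 5 with day as a term, none of them a P450 clone. The count with an unadjusted p under 0.05 was 316 in the authors' table turned and 629 to 1182 when 1 replicate was left out. Clones 2-fold apart numbered 1 under print-tip loess, 0 with no background subtraction, 9 with signal medians, 1 with no spot flags, 2 with empty spots left out, 1 under the strict filter, 15 with day as a term, 2 with R2b turned, 141 and 101 in the authors' table turned and as deposited, 9 without array R3a (an alternative chosen after seeing the data), and 15 to 36 when 1 replicate was left out. P450 clones with an unadjusted p under 0.05 numbered 0 under print-tip loess, median centring, no filter, either array turned, the authors' table in both forms and without array R2b, 2 with no spot flags, and 1 to 2 when 1 replicate was left out. With no spot flags 13 P450 clones were tested, among them CYP93E1 Gm-r1021-2458 (unadjusted p = 0.0415 in limma), untested in the main fit. Of all clones 1092 were under 0.05 there, against 743 in the main fit. In the 6-array fit with the dye and the replicate block, P450 clones with an unadjusted p under 0.05 numbered 5, and 0 passed the adjusted p. Of all clones 838 were under 0.05 in that fit, against 743 in the main fit. Its within-pair correlation was 0.0033, so it treats the arrays of a pair as nearly separate measurements. P450 clones with 1 sign in all replicates numbered 5 of 10 in the main fit and 8 of 13 with no spot flags. They numbered 3 with signal medians, with R2b turned and in the authors' table turned. They also numbered 3 with empty spots left out, where fewer than 10 P450 clones could be tested. The share of all clones with 1 sign in all replicates was not counted at these alternatives, so these sign counts are a description. The cause of the shifts between settings was not tested. The share of P450 spots above background stayed within 71.7% to 88.5% in both lines. Poor spots limit the precision, since 15 of 30 replicate values come from 1 array. Replicate 1 is the only one of its day, so its values stand for that day, and those without replicate 1 for the other.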
